A study of Rattus norvegicus with 32 samples.

Results

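Plpp1, P2rx4, Abi2, Lsamp, Sfxn1 and Apobec1 are 6 genes whose signal in normal mammary gland stood apart in rats of the Copenhagen (Cop) strain from that of 4 other inbred strains. They were chosen on those measured values, out of 30 genes with a single symbol that lay apart in Cop. Genes with a single symbol numbered 4737 on the array, and 3053 of them passed a filter on low signal and could be tested. Because of that choice, the differences between Cop and the other inbred strains are given here as a description without a test. The array held 10 probe sets for the 6 genes among 8799, and 9 of the 10 were among the 5039 that passed that filter. The gene with 1 probe set below the filter was Abi2, whose probe set rc_AA860020_at gave 0.7 to 38.2 over the 30 single-sample arrays and stayed below the floor of 18.3 on all but 1 ACI array and 1 BUF/N array. Lsamp passed the filter, a signal above 78.4 on at least 5 arrays, through its 5 Cop arrays, since 2 of the other 25 arrays were above it, while the leading probe sets of the other 5 genes pass without Cop.

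The arrays measured total RNA of normal mammary gland, with 1 Affymetrix rat array per sample and 5 samples in each of 6 groups. The groups were the F1 hybrid from a cross of Cop with F344, its 2 parent strains Cop and F344, and the further inbred strains ACI, BUF/N and WF, with no treatment named. A pool of Cop and a pool of F344 were measured on 1 array each. The series concerns genetic susceptibility to mammary cancer, and Cop rats are known for their resistance to mammary tumours induced by chemicals. Age and sex of the rats are not stated, nor whether 1 animal could give several samples, so p-values here reflect how far these samples vary, which may be technical.

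The 6 genes belong to separate pathways. Plpp1, P2rx4 and Lsamp sit in the cell membrane: Plpp1 is a phosphatase that removes phosphate from lipids such as lysophosphatidic acid, P2rx4 is a cation channel opened by extracellular ATP, and Lsamp is a lipid-anchored adhesion protein of the IgLON family best known from the limbic system of the brain. The others act inside the cell: Sfxn1 carries serine into mitochondria, as shown in human cells, Abi2 is an adaptor of the Abl kinases and a subunit of the WAVE complex that drives actin branching, and Apobec1 is the cytidine deaminase that edits the mRNA of apolipoprotein B in rat intestine.

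Correlations of log2 signal between arrays of a group ran from 0.846 to 0.978. The arrays F1 2 and F1 3 correlated at 0.846 to 0.893 with the other F1 arrays and at 0.959 with each other, and ACI 2 and ACI 5 at 0.876 to 0.913 with the other ACI arrays and at 0.951 with each other. The positions of F1 and several other results on F1 or ACI are therefore also given without those arrays. The tissue label was borne by its markers, as luminal epithelial genes (Krt8, Krt18, Krt19, Epcam), milk protein genes (Csn1s1, Lalba) and adipocyte genes (Lipe, Fabp4, Car3) gave signal in every group. Not all milk protein genes did: Csn1s2a averaged 24.4 in Cop and 16.8 in F344, and Wap 19.3 in Cop, near the floor of 18.3. As the RNA came from whole tissue, fewer cells of a type and less RNA per cell cannot be told apart in any of the differences below.

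RefSeq places the 6 genes on 6 rat chromosomes (build GRCr8), which are chromosome 2 for Plpp1, 12 for P2rx4, 9 for Abi2, 11 for Lsamp, 17 for Sfxn1 and 4 for Apobec1. Their promoter windows, 250 bases before to 50 after the gene's start, ranged widely in base composition. The window of Abi2 had 49 CpG dinucleotides, which put it at percentile 99.1 of 33465 rat promoter windows, and that of Apobec1 had 2, at percentile 13.6, against a median of 7. These 2 windows are shown because they are the ends of that range among the 6 genes, with every CG in capitals. They are the reference sequence and not that of Cop or any other strain on the arrays. The Abi2 window lies at chr9:69320955-69321254 on the plus strand and the Apobec1 window at chr4:157487552-157487851 on the minus strand, both written 5′ to 3′.
Abi2: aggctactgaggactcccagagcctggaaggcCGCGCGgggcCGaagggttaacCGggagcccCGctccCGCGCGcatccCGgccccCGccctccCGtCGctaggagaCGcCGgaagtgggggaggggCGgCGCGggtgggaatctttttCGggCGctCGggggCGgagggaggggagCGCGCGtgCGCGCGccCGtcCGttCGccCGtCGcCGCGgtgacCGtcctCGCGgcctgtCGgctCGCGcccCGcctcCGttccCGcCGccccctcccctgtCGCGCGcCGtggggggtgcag
Apobec1: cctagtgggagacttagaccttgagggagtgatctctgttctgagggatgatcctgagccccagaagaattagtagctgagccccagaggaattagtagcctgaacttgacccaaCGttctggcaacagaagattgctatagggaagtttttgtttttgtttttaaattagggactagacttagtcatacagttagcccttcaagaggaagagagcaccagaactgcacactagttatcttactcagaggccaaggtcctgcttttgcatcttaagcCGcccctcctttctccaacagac
Between these ends, Sfxn1 had 37 CpG, Plpp1 28, P2rx4 21, and the 2 starts of Lsamp 12 and 4. The letters TATAAA, searched on both strands, were in none of the member windows and in 14.2% of all windows. GGGCGG occurred 4 times in the Abi2 window, 2 times in that of Sfxn1, and once each in those of Plpp1 and Apobec1, against 33.1% of all windows with any match. CCAAT occurred once each in the windows of Plpp1, Sfxn1 and the first listed start of Lsamp, against 37.5% of all windows. Nothing in the array data bears on these motifs.

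Plpp1, Lsamp, Sfxn1 and Apobec1 were higher in Cop, and P2rx4 and Abi2 were lower in Cop, than in F344, ACI, BUF/N and WF. On the probe set of each gene that separated Cop most (the leading probe set), every Cop array lay above all 20 arrays of the other 4 inbred strains for the first 4 genes and below all 20 for the last 2. These separations were what chose the genes. Over all 5039 probe sets, 0.556% had every Cop array above those of the other 4 strains and 0.218% had every Cop array below them. By the adjusted p-values that defined the choice, 36 probe sets (0.714%) were apart in Cop, 7 of them of the 6 genes. Among the members the smallest change inside that choice was that of Apobec1, 0.68 on the log2 scale against its nearest strain, and the largest outside it was 0.62, on the second probe set of Sfxn1.

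**Figure D1:**
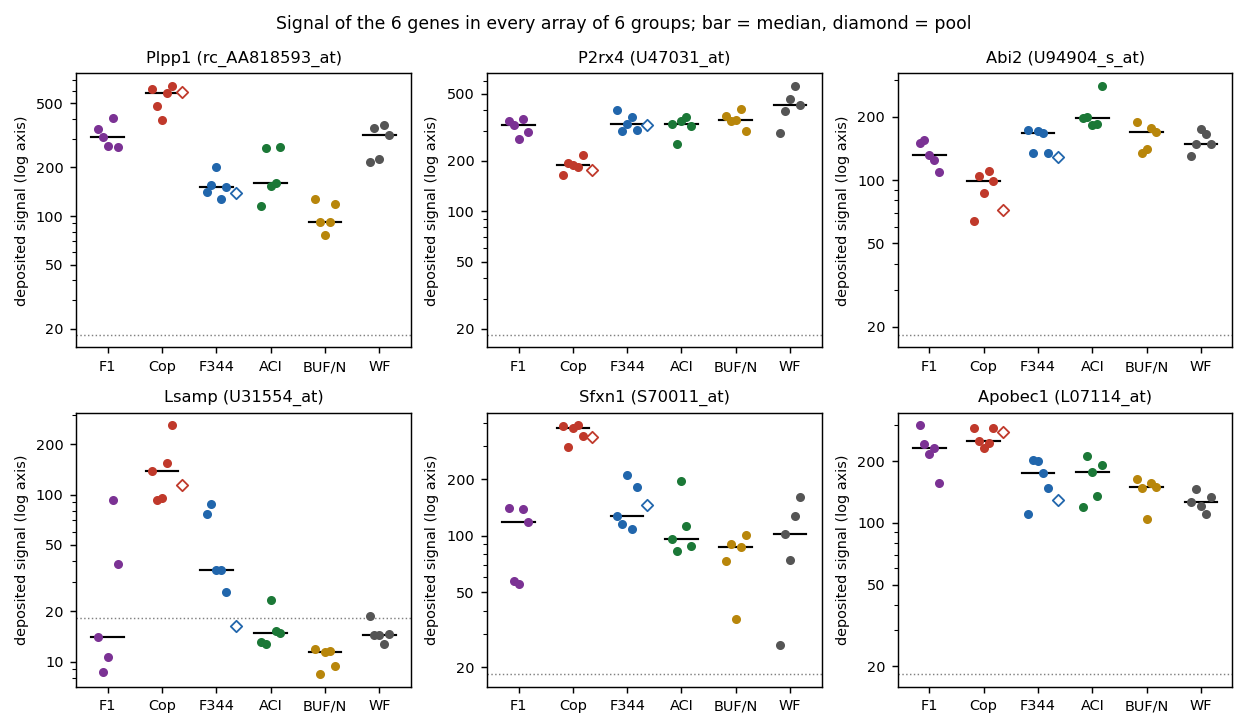
Deposited signal (log axis) of the leading probe set of each of the 6 genes on every array, by group, with the group median as a bar, the Cop and F344 pools as open diamonds and the floor of 18.3 as a dotted line. Cop arrays lie above all arrays of F344, ACI, BUF/N and WF for Plpp1, Lsamp, Sfxn1 and Apobec1 and below them for P2rx4 and Abi2, while the F1 arrays lie near Cop, near F344 or between them depending on the gene.

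Plpp1 gave signals of 610.3, 483.6, 392.2, 577.1 and 642.7 in the 5 Cop arrays on its leading probe set rc_AA818593_at. The nearest strain was WF, with 216.2, 352.8, 224.5, 366 and 319.4. The lowest strain was BUF/N, with 127.9, 91.5, 76, 91.6 and 118.9. The Cop arrays therefore cleared the highest WF array by a small margin and the BUF/N arrays by a wide one. F344 gave 127.8 to 202.3 and ACI 114.8 to 267.5. Fitted on the log2 scale, Cop exceeded WF by 0.88, ACI by 1.55, F344 by 1.79 and BUF/N by 2.42. By mean signal the order was Cop at 541 ± 102, F1 at 320.0 ± 57.7, WF at 296 ± 71.0, ACI at 192 ± 70.1, F344 at 156 ± 28.3 and BUF/N at 101 ± 21.5 (SD, n = 5 each), and each neighbour in that order overlapped the next.

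P2rx4, measured by U47031_at, gave 164.7, 192.5, 187.8, 182.5 and 217.5 in Cop. In F344 it gave 403.1, 302.4, 331.1, 362.5 and 306.2, and the lowest array of the other strains was an ACI array at 250.5. The channel gene was thus low in Cop, which averaged 189 ± 19.1, against 341 ± 42.2 in F344, 323 ± 43.5 in ACI, 353 ± 38.2 in BUF/N and 428 ± 97.8 in WF (SD, n = 5 each). The Cop level was 0.77 to 1.15 lower on the log2 scale, least against ACI and most against WF. In the order of means, Cop was the sole group whose arrays did not overlap those of its neighbour.

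Lsamp had the largest log2 differences of Cop from ACI, BUF/N and WF among the 6 genes. Its probe set U31554_at gave 139, 92.3, 95.1, 155.2 and 260.7 in Cop. The F344 arrays gave 76.7, 87.6, 35.2, 35.4 and 26. ACI gave 12.8 to 23.4, BUF/N 8.4 to 11.9 and WF 12.8 to 18.8, so that 4 ACI, 5 BUF/N and 4 WF arrays were at the floor. The adhesion gene was thus measured above the floor in Cop and F344, and mostly at it in ACI, BUF/N and WF. Cop exceeded F344 by 1.57 on the log2 scale, a fold of 2.96. Every BUF/N array was at the floor, and the geometric mean of Cop was 7.52 times that floor (log2 2.91 ± 0.39, SE). The spread in Cop was wide, with a mean of 148 ± 68.4 (SD, n = 5). On the floored scale the order was Cop, F344 and F1, with Cop not overlapping F344, and no order is given among ACI, WF and BUF/N.

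Sfxn1 gave 384.4, 296.2, 375.5, 389.3 and 342.2 in Cop on its leading probe set S70011_at. F344 gave 127.8, 115.7, 211.1, 109 and 182.3, and the other 3 strains ranged from 26.3 to 195.4. The carrier gene was thus set apart by a clear gap between the lowest Cop array, at 296.2, and the highest array of another inbred strain, at 211.1. Cop exceeded F344 by 1.30, ACI by 1.70, WF by 2.09 and BUF/N by 2.28 on the log2 scale. Cop averaged 358 ± 38.9, against 149 ± 45.1 in F344, 115 ± 46.2 in ACI, 98.4 ± 51.4 in WF and 77.6 ± 25.2 in BUF/N (SD, n = 5 each), and below Cop each strain overlapped the next.

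Abi2, on U94904_s_at, gave 63.7, 104.7, 87.2, 110.6 and 98.8 in Cop, against 172.2, 133.9, 172.1, 167.3 and 134.2 in F344. ACI was highest, at 183.3 to 281.3, and the lowest array outside Cop among the inbred strains was a WF array at 130.2. The adaptor gene was thus lower in Cop by 0.74 (against WF) to 1.18 (against ACI) on the log2 scale. In the order of means, ACI at 210 ± 40.8 was followed by BUF/N, F344, WF, F1 and then Cop at 93.0 ± 18.5 (SD, n = 5 each), each overlapping the next. The suffix of this probe set marks probes that may match more than 1 transcript, so other transcripts may share in its signal.

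Apobec1 gave 288.9, 251.6, 232.9, 245.9 and 289.4 in Cop on L07114_at, against 110.4, 203.3, 200.2, 174.3 and 147.8 in F344. ACI reached 212, and BUF/N and WF stayed at or below 163.6. The editing enzyme had the smallest differences of the 6 genes from F344 and ACI, at 0.68 each on the log2 scale, and it exceeded BUF/N by 0.87 and WF by 1.03. The means ran in the order Cop at 262 ± 25.9, F1 at 229 ± 51.6, F344 at 167 ± 38.9, ACI at 167 ± 38.5, BUF/N at 144 ± 23.3 and WF at 128 ± 13.4 (SD, n = 5 each), each overlapping the next.

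Markers of several cell types also differed between Cop and the other strains. The summed signal of 9 luminal epithelial genes of 12 listed was 2663 to 4882 in Cop, against 4965 to 6935 in F344, 4381 to 6919 in ACI, 7434 to 8971 in BUF/N and 7318 to 9168 in WF. The sum of 9 adipocyte genes of 12 listed was 20173 to 26338 in Cop, against 19147 to 21500 in F344, 14892 to 18179 in ACI, 11710 to 16288 in BUF/N and 15432 to 23129 in WF. So Cop arrays were low in summed luminal markers, overlapping ACI alone, and high in summed adipocyte markers, overlapping F344 and WF. Not every gene of these lists followed its sum. Among adipocyte genes Pparg had a lower mean in Cop than in F344, and Lep a lower one than in ACI and BUF/N. The luminal gene Esr1 had a higher mean in Cop than in ACI and BUF/N. The macrophage sum (7 of 12 genes) was 5996 to 7255 in Cop, within the span of 5947 to 7408 in F344. It was 3634 to 6434 in ACI, 4531 to 6436 in BUF/N and 4300 to 5679 in WF, so Cop lay above WF without overlap. For Lsamp, the sum of 10 nerve and Schwann cell genes of 13 listed was 6295 to 10051 in Cop, against 4779 to 7981 over ACI, BUF/N and WF and 6330 to 7881 in F344, and the neurofilament gene Nefm was at the floor on all 30 arrays. Most of that sum was S100b and Pmp22, with means of 4659 and 2842 in Cop, against at most 3832 and 2389 in the other inbred strains. The Schwann cell factor gene Sox10 went the other way, at a mean of 98.6 in Cop, against 155.0 to 289 in the other inbred strains, and Nefl and Uchl1 were likewise lowest in Cop among the inbred strains, at means of 22.2 and 27.3. With group means removed, r between a gene and the luminal sum over the 30 arrays ran from -0.42 (Plpp1) to 0.32 (P2rx4). Over all marker lists it ran from -0.52 (P2rx4 with the adipocyte sum) to 0.51 (Sfxn1 with the mast cell sum), and the mast cell sum was at 0.48 with Apobec1 and 0.45 with Plpp1. By Spearman rank correlation these 4 values were -0.39, 0.285, 0.496 and 0.49 in the order named. The rank correlation of Sfxn1 with the milk protein sum was -0.59. The arrays share their groups and scaling. The part of these markers in the 6 genes' differences was not tested.

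The other probe sets of 3 of the genes were less separate. The second probe set of Plpp1, rc_AA818593_g_at, designed on the same source sequence, averaged 999 ± 204 in Cop, against 394 ± 86.9 (BUF/N) to 568 ± 76.8 (ACI) in the other inbred strains (SD, n = 5 each), and it overlapped them, since Cop 2 at 722.9 was below F344 3 at 763.6. The third, rc_AI230354_at, on another source sequence, showed no separation, with 423.7 to 848.7 in Cop and 349.9 to 798.3 over the other strains, and it correlated at 0.26 with the leading probe set over the 30 arrays, where the first pair correlated at 0.84. Cop thus stood out for Plpp1 on the probe sets of a single source sequence. The second probe set of Sfxn1, S70011_g_at, gave 901.9 to 1305.2 in Cop and at most 955.2 (a WF array) elsewhere, and Cop exceeded F344 by 0.62 on the log2 scale there, against 1.30 on the leading probe set.

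**Figure D2:**
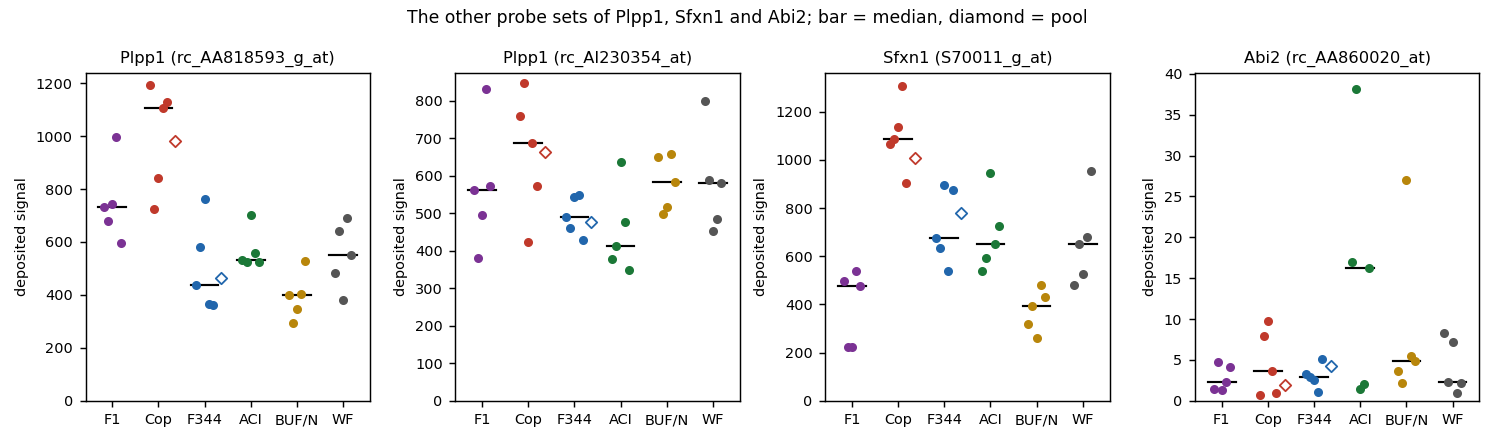
Deposited signal (linear axes) on every array of the 4 probe sets of Plpp1, Sfxn1 and Abi2 that were not the leading ones, by group, with medians as bars and pools as open diamonds. The third Plpp1 probe set does not separate Cop, the second of Plpp1 and of Sfxn1 do so with some overlap, and the second of Abi2 stays near 0.

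The F1 hybrid was used to ask whether each gene followed one parent or lay between them. Its arrays had no part in the choice of the genes, whereas those of Cop and F344 had. The p-values against F344 are thus not independent of the choice, and they are given with that limit. Differences from Cop and from the middle of the parents rest on the Cop values that chose the genes, so they are given as a description with no p-value, and nothing is read from their counts. Limma with Benjamini-Hochberg adjustment over all 5039 probe sets called 5 of the 6 genes different between F1 and Cop, where 26.3% of all probe sets were called. Against F344 it called 1 of the 6, where 31.7% of all probe sets were called. The gene called against F344 was Plpp1. Without F1 2 and F1 3 the counts were 3 against Cop and 1 against F344.

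To place the hybrid, its log2 mean was expressed on a scale on which the F344 mean is 0 and the Cop mean is 1, with a 95% Fieller interval from the same fit. Both ends of that scale come from arrays that chose the genes, so positions and intervals are a description and not a test. Plpp1 lay at 0.58 (0.36 to 0.81), Apobec1 at 0.68 (0.16 to 1.36), Abi2 at 0.29 (-0.18 to 0.67) and P2rx4 at 0.12 (-0.30 to 0.42). Lsamp lay at -0.42 (-1.55 to 0.06) and Sfxn1 at -0.47 (-1.98 to 0.08). Without F1 2 and F1 3 the positions were 0.62 for Plpp1, 0.65 for Apobec1, 0.38 for Abi2, 0.04 for P2rx4, -0.13 for Lsamp and -0.10 for Sfxn1, so those of Lsamp and Sfxn1 came close to F344. With 1 array left out at a time Lsamp ran from -0.69 (without F1 4) to -0.24 (without F344 2), Abi2 from 0.20 (without F1 5) to 0.36 and P2rx4 from 0.05 (without F344 1) to 0.17. On the leading probe sets with all arrays the interval of Plpp1 lay inside the span of its parents, the interval of P2rx4, Abi2, Lsamp and Sfxn1 held F344 but not Cop, and that of Apobec1 held Cop but not F344. The intervals were not adjusted over probe sets, and limma did not call Apobec1 between F1 and F344 (adjusted p = 0.0561). For Lsamp 3 of the 5 F1 arrays were at the floor, and its position ran from -0.71 to -0.10 over the other processing settings. The second probe set of Plpp1 put the hybrid at 0.60 with an interval of 0.241 to 1.004 that reached Cop, and the second of Sfxn1 put it at -1.56 with one of -9.09 to -0.52 that did not hold F344.

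**Figure D3:**
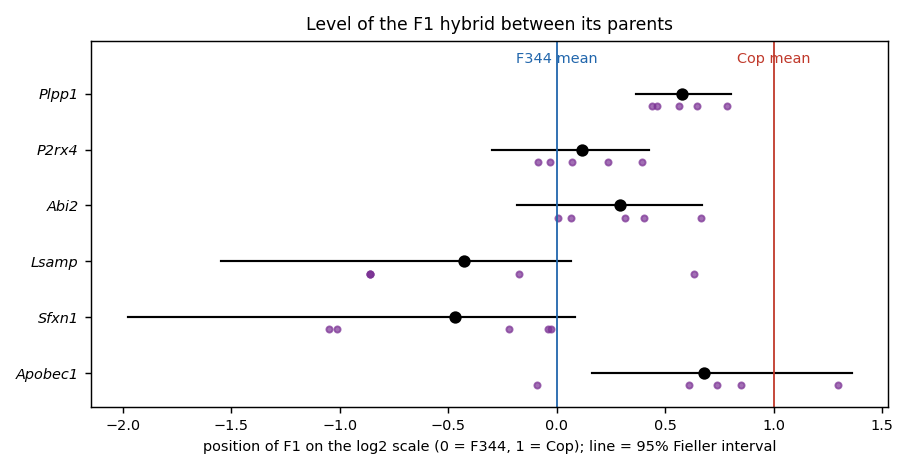
Position of the F1 hybrid on the log2 scale between F344 (0) and Cop (1) for the leading probe set of each gene, with the 95% Fieller interval as a line and each F1 array as a small dot. Plpp1 at 0.58 sits between the parents, P2rx4 at 0.12 near F344, and Lsamp and Sfxn1 at -0.42 and -0.47 on the far side of F344 from Cop. Without F1 2 and F1 3 these last 2 were -0.13 and -0.10.

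Plpp1 in F1 gave 344.1, 309.6, 273.4, 406.8 and 266.1. All but F1 4 lay below every Cop array and all 5 lay above every F344 array. The mean of 320.0 ± 57.7 in F1 stood against 541 ± 102 in Cop and 156 ± 28.3 in F344 (SD, n = 5 each). On the log2 scale F1 was 0.75 ± 0.22 (SE) lower than Cop and 1.04 ± 0.22 higher than F344 (adjusted p = 0.000698), and its difference from the middle of its parents was 0.14 ± 0.19. The F344 arrays took part in the choice of this gene, which limits what that p-value shows. On the second Plpp1 probe set F1 was 0.62 higher than F344 (adjusted p = 0.0202) and its difference from Cop was -0.41. Without F1 2 and F1 3 that call against F344 was lost, at 0.66 (adjusted p = 0.052). It was also lost without F1 4, F344 4 or F344 5 (adjusted p = 0.0589 to 0.071). On the third Plpp1 probe set the difference from F344 was 0.16 (adjusted p = 0.56).

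P2rx4 in F1 gave 345.3, 324.9, 268.8, 356.4 and 295.1, all above every Cop array and 3 of them within the range of F344. F1 was 0.75 ± 0.15 (SE) higher than Cop. Its difference from F344 was -0.10 (adjusted p = 0.627), with a 95% interval of -0.40 to 0.20 that leaves room for a small difference. It lay 0.32 ± 0.13 (SE) above the middle of its parents, and 0.39 above it without F1 2 and F1 3.

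Lsamp in F1 gave 14, 8.7, 10.6, 92.2 and 38.5, so 3 of the 5 arrays were at the floor. The array F1 4 came just under the lowest Cop array of 92.3, and the other hybrid arrays lay within or below the F344 range. F1 was 2.23 ± 0.39 (SE) lower than Cop on the floored log2 scale. Against F344 the difference was -0.66 (adjusted p = 0.193, 95% interval -1.45 to 0.13). Relative to the middle of its parents F1 was 1.45 ± 0.33 lower, and 0.99 lower without F1 2 and F1 3. Without F1 4 the difference from F344 was called (adjusted p = 0.020). Without F1 2 and F1 3 it was -0.21 and not called (adjusted p = 0.777).

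Sfxn1 in F1 gave 140.9, 57.7, 55.7, 138.8 and 118.1, with F1 2 and F1 3 as the low arrays. All 5 lay far below the lowest Cop array of 296.2, and 3 lay within the F344 range. The difference of F1 from Cop was -1.92 ± 0.37 (SE) and from F344 -0.61 (adjusted p = 0.206, 95% interval -1.36 to 0.14). Without F1 2 and F1 3 the difference from F344 was -0.12 (adjusted p = 0.857). From the middle of the parents F1 was 1.26 ± 0.32 lower, and 0.78 lower without F1 2 and F1 3. The second Sfxn1 probe set gave 497, 224.3, 222.7, 536.7 and 476.8 in F1, all below every F344 array, whose lowest was 539.6. There the hybrid was lower than F344 as well, by 0.97 (adjusted p = 0.00303), a call lost without F1 2 and F1 3, at -0.50 (adjusted p = 0.106).

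Abi2 in F1 gave 149.5, 154.4, 131, 125.1 and 109.1, and the last of these fell within the Cop range. F1 was 0.54 ± 0.16 (SE) higher than Cop, and 0.47 higher without F1 2 and F1 3. The difference from F344 was -0.22 (adjusted p = 0.301, 95% interval -0.55 to 0.11). The hybrid mean lay between the parents' means, at 134 ± 18.5, against 93.0 ± 18.5 in Cop and 156 ± 20.1 in F344 (SD, n = 5 each).

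Apobec1 in F1 gave 299.8, 243, 217, 230.6 and 156.3, which spanned from above the highest Cop array of 289.4 to within the F344 range. The difference from Cop was -0.22 ± 0.18 (SE) and from F344 0.46 (adjusted p = 0.0561). The interval of the second, 0.08 to 0.84, was not adjusted over probe sets. With array F1 5 left out, or with array weights, the difference from F344 was called, and the adjusted p ran from 0.0039 to 0.195 over all alternatives tried.

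Against the middle of the parents, the limma fit called 3 of the 6 genes, where 35.2% of all probe sets were called, and 0 of the 6 without F1 2 and F1 3. That middle holds the Cop and F344 values that chose the genes, so nothing is read from these counts. Summed luminal markers in F1 were 5309 to 8539, against 2663 to 4882 in Cop and 4965 to 6935 in F344, and summed fibroblast markers (9 of 10 genes) were 43470 to 64922 in F1, against 33658 to 42692 in Cop and 31693 to 35773 in F344. The milk protein sum (7 of 8 genes) was 18001 to 41635 in F1, against 4898 to 11662 in Cop and 7247 to 10719 in F344, and the sum of myoepithelial and smooth muscle markers (8 of 10 genes) was 11427 to 13705 in F1, against 5186 to 8966 in Cop and 7212 to 8517 in F344. The F1 arrays thus exceeded both parents without overlap in the sums of fibroblast, milk protein and myoepithelial markers, which the brightest genes dominate. Single members did not all follow. Col3a1, Lum and Oxtr had lower means in F1 than in either parent, with Oxtr at 290 in F1, 439 in Cop and 438 in F344. Skeletal muscle markers (11 of 14 genes) summed to 252 to 3390 in F1, against 538 to 22032 in Cop and 4965 to 25125 in F344. With group means removed, Sfxn1 correlated at -0.43 with the milk protein sum over the 30 arrays (Spearman rank correlation -0.59). The part of these markers in the position of the hybrid was not tested.

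The 6 pairs among F344, ACI, BUF/N and WF ask what the genes did among strains once Cop is set aside. The choice asked for a difference of Cop from each of the 4 strains and not between them, but it used the arrays of all 4. Of 36 tests of a gene in a pair, limma called 7, and of all 30234 tests of a probe set in a pair it called 11.7%. By pair, the share of all probe sets called was 12.3% for F344 against ACI, 23.8% for F344 against BUF/N, 11.3% for F344 against WF, 13.7% for ACI against BUF/N, 7.18% for ACI against WF and 2.22% for BUF/N against WF. Plpp1 and Lsamp held all 7 calls. Without Lsamp, which was tested through its Cop arrays, 4 of 30 tests were called. P2rx4, Abi2, Sfxn1 and Apobec1 had none on their leading probe sets, with the smallest adjusted p at 0.0513 for Sfxn1 between F344 and BUF/N.

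**Figure D4:**
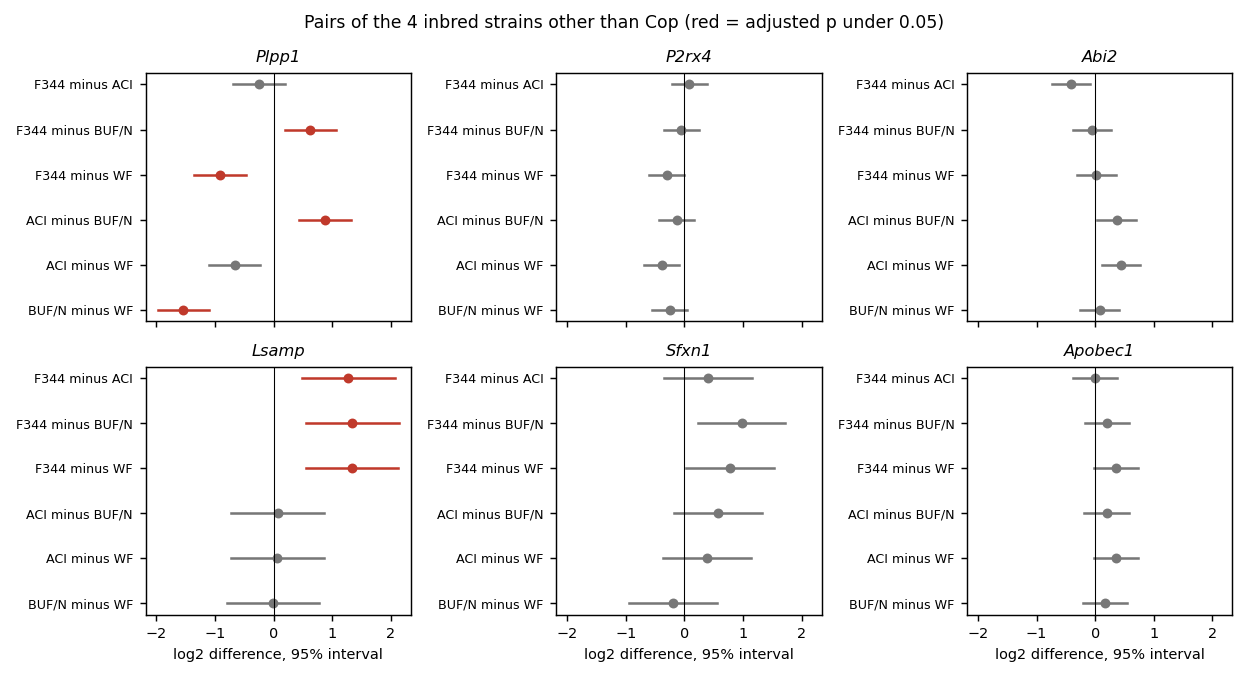
Log2 difference (first named minus second named) with its unadjusted 95% interval for the 6 pairs of inbred strains other than Cop, for each of the 6 genes, with calls at an adjusted p under 0.05 in red. The 7 calls are 4 of Plpp1 and 3 of Lsamp, which passed the filter only through its Cop arrays.

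Plpp1 was graded among these strains. F344 was 0.63 higher than BUF/N (adjusted p = 0.0343) and 0.91 lower than WF (adjusted p = 0.00580). ACI was 0.87 higher than BUF/N (adjusted p = 0.00628), and BUF/N was 1.54 lower than WF (adjusted p = 1.7e-05). So WF was the nearest to Cop and BUF/N the farthest. The pair of ACI and WF differed by -0.66 and was not called (adjusted p = 0.0563). The ACI arrays at 265.8 and 267.5 were ACI 2 and ACI 5, and without them the difference of ACI from BUF/N was 0.51 (adjusted p = 0.157). None of the 4 calls held on the second Plpp1 probe set, where the adjusted p ran from 0.0702 to 0.646.

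Lsamp was higher in F344 than in the other 3 strains, by 1.27 against ACI (adjusted p = 0.0302), 1.35 against BUF/N (adjusted p = 0.0140) and 1.34 against WF (adjusted p = 0.0240). Lsamp was tested only through its Cop arrays, and the arrays of all 4 strains took part in its choice. Both limit what those p-values show. All 5 F344 arrays, from 26 to 87.6, lay above all arrays of the 3 strains, the highest of which was 23.4. These values rest on the floor: with the floor at the 40th percentile of all values the 3 differences were 0.32 each, with adjusted p from 0.307 to 0.385. They also rest on the brightest F344 arrays: without F344 2 all 3 calls were lost (adjusted p = 0.0501 to 0.0981), and without F344 1 those against ACI and WF (adjusted p = 0.0815 and 0.0687). Without ACI 2 and ACI 5 the adjusted p for F344 against ACI was 0.120. As 4 ACI, 5 BUF/N and 4 WF arrays were at the floor, the sizes are those of F344 over the floor. On the second Sfxn1 probe set F344 was 0.95 higher than BUF/N (adjusted p = 0.00549) and ACI 0.88 higher than BUF/N (adjusted p = 0.0123).

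The 2 pools gave 1 array each and no test. Between them Plpp1 had 583.6 in the Cop pool, against 138.6 in the F344 pool, P2rx4 176.9 against 324.5, Sfxn1 337.4 against 145.8, and Apobec1 277.8 against 129.5. Abi2 had 72.3 in the Cop pool, against 128.4 in the F344 pool, and Lsamp 113.9 against 16.4. All 6 genes kept in the pools the direction of the single samples, with log2 ratios of 2.07 for Plpp1, -0.88 for P2rx4, 1.21 for Sfxn1, 1.10 for Apobec1 and -0.83 for Abi2. The F344 pool of Lsamp was at the floor, below all 5 F344 arrays, so its ratio was at least 6.22-fold, and the F344 pool of Abi2 lay just under the lowest F344 array of 133.9. A pool outside the range of its single samples was common, at 20.3% of tested probe sets for Cop and 16.3% for F344. The pools may hold the same animals as the single samples.

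Among tested probe sets with a single symbol, the most similar patterns over the 30 arrays were named by Pearson's r of log2 signal. For Plpp1 they were Pf4 (0.80), Tspan8 (0.77) and Clec10a (0.76). For P2rx4 they were Hs6st1 (0.81), Ptprf (0.78) and Cldn3 (0.77), and Hs6st1 also led for Abi2 (0.84), before Slc19a1 (0.75) and Sqle (0.73). With group means removed, r was 0.12 with Pf4 and 0.13 with Tspan8 for Plpp1, 0.25, 0.46 and 0.42 for P2rx4 in the order named, and 0.46, 0.53 and 0.39 for Abi2. Sfxn1 was nearest to Capn2 (0.87), Tgoln2 (0.82) and Mdfic (0.81), and these kept 0.69, 0.82 and 0.63 with group means removed. Lsamp was nearest to Capn2 (0.73), Sfxn1 (0.73) and Etfa (0.73), and Apobec1 to Milr1 (0.80), C1qb (0.77) and Cd151 (0.76). C1qb encodes a chain of the complement protein C1q made by macrophages, and Clec10a a macrophage lectin. With group means removed, C1qb was at 0.65 with Apobec1 and Clec10a at 0.58 with Plpp1. The summed macrophage markers were then at 0.25 with Apobec1 and -0.04 with Plpp1. Milr1 and Cd151 were at 0.39 and 0.29 with Apobec1, and the neighbours of Lsamp at 0.16, 0.14 and 0.21 in the order named. Between the 6 genes themselves r without group means ran from -0.21 (P2rx4 with Apobec1) to 0.61 (Plpp1 with Apobec1). The arrays share their groups and scaling, so these values are descriptions.

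The other genes of the 6 pathways were taken from lists, and Cop was compared with the mean of F344, ACI, BUF/N and WF on the arrays that also chose the 6 genes. Of 206 listed genes, 101 were on the array and 65 were tested, and limma called 9 (13.8%), of which 1 was higher and 8 were lower in Cop. At an unadjusted p under 0.05 there were 7 higher and 12 lower. Over all 5039 probe sets it called 11.7%, with 279 (5.54%) higher and 313 (6.21%) lower. The median log2 difference was -0.13 over the 65 genes and -0.03 over all probe sets. None of the 65 lay apart in Cop from each of the 4 strains, where 36 of the 5039 did.

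**Figure D5:**
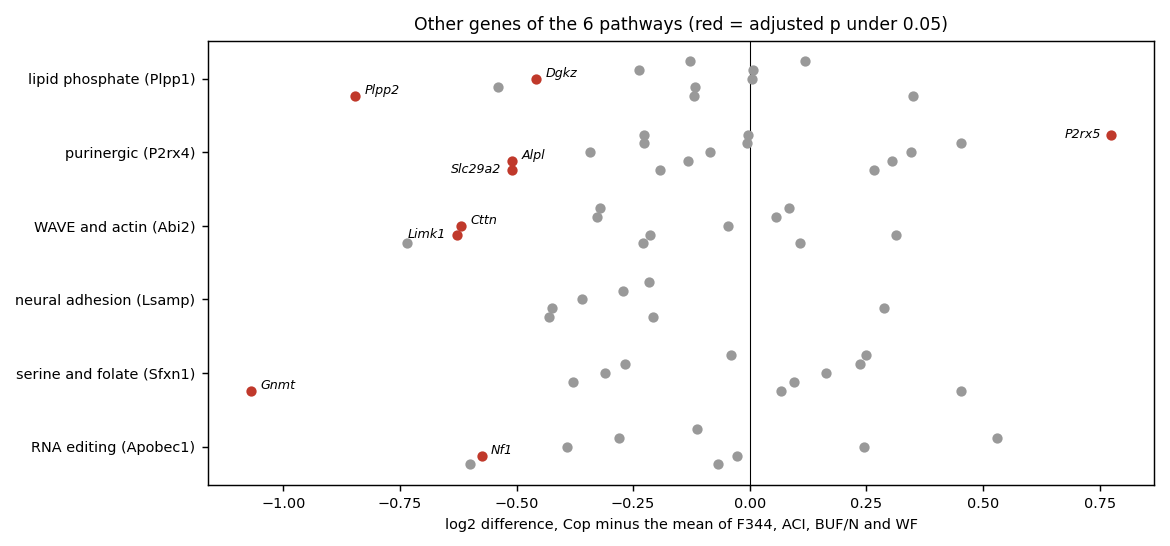
Log2 difference of Cop from the mean of F344, ACI, BUF/N and WF for the 65 tested genes of 6 lists, 1 dot per gene, grouped by the member whose pathway they belong to, with calls at an adjusted p under 0.05 in red. Of the 9 calls, P2rx5 is to the right of 0 and the other 8 are to the left.

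Among genes of lipid phosphate signalling, 0 of 11 rose and 2 fell in Cop. Plpp2, a phosphatase of the same family as Plpp1, averaged 284 ± 43.2 in Cop, against 396 ± 103 in F344, 406 ± 115 in ACI, 778 ± 102 in BUF/N and 569 ± 103 in WF (SD, n = 5 each). It was 0.85 lower (adjusted p = 0.000404), so the relatives Plpp1 and Plpp2 differed in opposite directions. Dgkz, a kinase that makes phosphatidic acid, was 0.46 lower (adjusted p = 0.0224), and Plpp3 differed by 0.35 (adjusted p = 0.0910).

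In the purinergic list 1 of 15 rose and 2 fell. P2rx5, another ATP-gated channel, averaged 82.3 ± 12.3 in Cop, against 39.1 ± 12.1 in WF to 61.1 ± 15.7 in ACI (SD, n = 5 each), and was 0.77 higher (adjusted p = 0.0393). The channel P2rx2 differed by -0.09 (adjusted p = 0.766), and P2rx1, P2rx3, P2rx6 and P2rx7 were on the array but below the filter. Alpl, an alkaline phosphatase that can break down extracellular nucleotides, was 0.51 lower (adjusted p = 0.00774), though its Cop mean of 1116 ± 147 was above the F344 mean of 895 ± 174 (SD, n = 5 each). Slc29a2, a nucleoside transporter, was also 0.51 lower (adjusted p = 0.0312).

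In the list of WAVE, Abl and actin genes 0 of 12 rose and 2 fell: Limk1, a kinase that acts on the actin-severing protein cofilin, by 0.63 (adjusted p = 0.00406), and Cttn, an actin-binding partner of the Arp2/3 complex, by 0.62 (adjusted p = 0.00746). Abi1 and Abi3 had no probe set with a single symbol here. Of the neural adhesion list limma called 0 of 7 in either direction, with 1 at an unadjusted p under 0.05, and the IgLON relatives Ntm and Opcml were on the array but below the filter. In the list of sideroflexins, serine and folate genes 1 of 11 fell, which was Gnmt, a glycine methyltransferase, by 1.07 (adjusted p = 0.00347), while Sfxn3 differed by 0.07 (adjusted p = 0.789). In the RNA editing list 1 of 9 fell, which was Nf1, by 0.57 (adjusted p = 0.0136). Nf1 is the neurofibromin gene, whose mRNA Apobec1 is reported to edit in human tumours. Its Cop mean of 220 ± 50.8 was close to the F344 mean of 238 ± 48.8 (SD). The means in ACI, BUF/N and WF were higher, at 362 ± 70.8, 375 ± 43.2 and 347 ± 93.1 (SD). A link between Nf1 and Apobec1 was not tested. Apob, the main target of Apobec1, differed by -0.60 (adjusted p = 0.235).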

How the data were processed

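The authors hybridised 1 array per sample and deposited linear signal intensities for 8799 probe sets (59 controls), computed with Affymetrix Microarray Suite 5.0, per the labels. Each array had been scaled to a common trimmed mean of 250.3 to 250.4, while medians ran from 66.05 to 102.55. Groups came from the labels. A floor of 18.3, the 25th percentile over all arrays, replaced lower signals before log2 transformation. Tests covered probe sets that exceeded the overall median of 78.4 on 5 or more of the 30 arrays. Group means were fitted over the 30 single-sample arrays with limma 3.58.1 in R 4.3.3 (variance trend, 29.58 degrees of freedom), adjusted by Benjamini-Hochberg over the 5039 tested probe sets in each contrast, at 0.05. The fit was tested on simulated data. The number of arrays limits the precision.

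The 6 genes and the lists were chosen with earlier results of these data known. All probe sets with a single symbol of the 6 genes were used, named through the platform's annotation and RefSeq. The leading one of a gene was that with the largest minimum change of Cop against the 4 other inbred strains. Named pathway genes were those called plus the nearest relatives of each member, and the 3 most similar probe sets per gene were named. Pathway genes were read from the probe set with the highest mean. The probe sequences were not used here. Alternatives were other floors, an offset of 50, other filters, quantile normalization, median centring, array weights, no trend, the pools as samples, fewer arrays, the replicate block and each array left out.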

Additional observations from a re-analysis of the deposited data

Results flagged for a closer look

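Of 54 sets of 5 arrays examined over the members' probe sets, 5 had an array whose gap to its nearest neighbour took up most of the group's range, and chance alone flags about 1 in 20 groups. Array ACI 3 was the highest of its group for 3 genes. It gave 703.1 for the second Plpp1 probe set, where the nearest ACI array gave 559.2, and 195.4 for Sfxn1, where the nearest gave 112.9. For Lsamp it gave 23.4, the nearest being 15.2, and the other 4 ACI arrays were at the floor. Array ACI 5 gave 281.3 for Abi2, where the nearest ACI array gave 200.1. Array BUF/N 3 gave 104.1 for Apobec1, where the nearest BUF/N array gave 148.1. None of these values lay within the Cop range of the same probe set.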

How the results depend on the processing

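Over 31 results with a test and 16 settings, 453 of 490 values kept their direction and side of the threshold, 31 lost the call and 6 gained it. With 1 array left out at a time, 891 of 930 did. These totals include differences of F1 from Cop and from the middle of its parents, which rest on values that chose the genes. They also include the strain pairs picked because they were called. No measure of robustness is therefore read from them. The sole change of sign was the difference of F1 from the middle of its parents on the second Plpp1 probe set without F1 4, -0.0016654 (up to 0.19 with another array left out). The genes called between F1 and Cop numbered 5, against 3 without F1 2 and F1 3 (chosen after seeing the data), and 4 to 5 with 1 array left out. Between F1 and F344 they numbered 1, against 2 with the offset of 50, median centring, array weights, the pools as sixth samples, the brightest probe set of each gene, or without ACI 2 and ACI 5, and 1 to 2 with 1 array left out (2 without F1 4, F1 5, F344 2, F344 3, ACI 1 or BUF/N 3). Against the middle of the parents they numbered 3, against 0 without F1 2 and F1 3, 1 without those and ACI 2 and ACI 5 together, and 2 to 3 with 1 array left out. The counts against Cop and against the middle of the parents rest on values that chose the genes, so nothing is read from them. Among the other strains' pairs the 7 calls became 4 with the filter of 15 arrays, which removed Lsamp, and 3 (without F344 2) to 11 (without WF 1) with 1 array left out. The 9 pathway genes became 17 without F1 2, F1 3, ACI 2 and ACI 5, and 5 (without Cop 1) to 11 with 1 array left out. The cause of these changes was not tested. The position of F1 for Sfxn1 was -1.56 on its second probe set. The replicate block changed 0 of the members' calls and gave 8 pathway genes. Replicate numbers did not pair the samples: r of deviations of 75 pairs with the same number ran from -0.45 to 0.40, and 5 of 30 arrays had their best partner at their own number. Signals near the floor, as for Lsamp, limit what these arrays can show.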
